A study of Mus with 4 samples.

Results

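Ion channel genes gave rise to circular RNAs (circRNAs) in mouse ocular tissue, and 9 of these host genes are described here. They encode the voltage-gated calcium channel subunits Cacna1c, Cacna1d, Cacna2d1, Cacna2d3, Cacna2d4, Cacnb2 and Cacnb4, the potassium channel Kcnma1 and the potassium channel partner Dpp6. Every circRNA whose deposited host identifier mapped to 1 of the 9 genes was taken, which gave 133 of the 44073 circRNAs in the tables. A circRNA is a closed RNA ring made when a splice donor joins an acceptor that lies upstream of it. Reads that cross this back-spliced junction are counted as reads of the ring, and ring is used here for a circRNA.

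The tissue was ocular, from mice of the C57BL/6J strain that either were wild type (WT) or lacked VLDLR (KO), a receptor that binds lipoproteins and reelin. Pups of both genotypes were kept in 75% oxygen, starting at postnatal day 7 (P7) and ending at P12. Tissue was collected at P12 directly after the oxygen or at P13, after 1 day in room air. Each of the 4 groups held 1 library: WT P12, WT P13, KO P12 and KO P13. The sources used here do not say how VLDLR was deleted, in which cells, or how many animals a library holds. Between P12 and P13, age and the return to room air cannot be told apart.

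Voltage-gated calcium channels let calcium into a cell when its membrane depolarises. The pore is formed by an alpha-1 subunit, which works with an extracellular alpha-2-delta subunit and an intracellular beta subunit that bring the channel to the membrane and set how it opens. In photoreceptors and bipolar cells, L-type channels of this family drive the steady release of glutamate at ribbon synapses. Kcnma1 encodes the pore of the BK channel, a potassium channel opened by depolarisation and calcium together. Dpp6 is an accessory subunit of the A-type potassium channels formed by the Kcnd genes.

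The libraries held 662811, 759063, 299723 and 341873 junction reads for WT P12, WT P13, KO P12 and KO P13, and a circRNA was listed from 2 reads on. Each library came from 1 sequencing run, on 2 lanes for each wild-type library and 1 lane for each deletion library. The genotypes shared 0 runs, so that genotype and run cannot be told apart. Whether the 2 libraries of a genotype shared a run is not stated here. Vldlr had 0 junction reads in each of the 4 libraries, and the targeted gene gives no check of the labels. Photoreceptor circRNAs marked the tissue as containing retina: 8 of 11 marker genes had them, and Nrl and Gnat1 were among those with 0 reads. Their summed scaled level was 7081 and 8348 in WT P12 and P13 and 10245 and 9943 in KO P12 and P13. A scaled level divides junction reads by the effective library size of the TMM normalization and is given per 1000000. Sums over a marker list use the sizes found from circRNAs, and single genes those found from reads summed per host. The levels of single genes therefore do not add up to those of their list. Bipolar-cell markers, of which 5 of 6 had circRNAs, stood at 399, 389, 723 and 557 in the same order. Those of striated muscle (7 of 7 genes) stood at 3036, 3137, 3269 and 3850, and lens markers (6 of 7, Mip at 0) at 963, 1203, 2867 and 2154. Without Bfsp1, a lens filament gene with 1886 reads over the 4 libraries, the lens markers stood at 403, 672, 321 and 213, lower in both deletion libraries. Retinal pigment epithelium (4 of 5 genes) stood at 112, 127, 197 and 203, amacrine, horizontal and ganglion cells (4 of 9) at 152, 119, 128 and 103, Müller glia (2 of 4) at 26.3, 6.18, 19.3 and 31.0, and endothelium (4 of 5, Cdh5 at 0) at 70.0, 119, 89.0 and 99.8. Summed, photoreceptor, bipolar, muscle and pigment epithelium markers were thus higher in both deletion libraries than in both wild-type libraries, muscle by little (3269 against 3137). Those of amacrine, horizontal and ganglion cells, Müller glia and endothelium overlapped between the genotypes. Within the photoreceptor list, Sag (458, 516, 1745 and 1602), Pde6a, Pde6b and Prom1 were higher in both deletion libraries. Rpgrip1 (3241, 3613, 3827 and 3325) and Impg2 (327, 405, 418 and 356) overlapped. The part of any list in the channel results was not tested.

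The 9 channel hosts together held 1960 of the junction reads in WT P12, which is 0.296% (95% exact binomial interval 0.283% to 0.309%). They held 2196 in WT P13 (0.289%, 0.277% to 0.302%), 1200 in KO P12 (0.400%, 0.378% to 0.424%) and 1129 in KO P13 (0.330%, 0.311% to 0.350%). Both deletion libraries had a larger share than both wild-type libraries, and their intervals do not overlap those of wild type. This holds for the sum, of which Kcnma1 alone held 1192, 1397, 783 and 743 reads. By host, scaled levels were higher in both deletion libraries for Kcnma1, Cacna2d4, Dpp6 and Cacna2d3. They were not for Cacna2d1, Cacna1c, Cacnb2, Cacnb4 and Cacna1d. All intervals cover counting error only. The tables listed 94, 93, 72 and 72 channel circRNAs in the same order. At a common depth of 299723 reads, the expected numbers were 71.3, 64.5, 72.0 and 68.8. Over all circRNAs they were 20823, 21123, 18022 and 19099, lower in both deletion libraries.

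Kcnma1 dominated the group, with 4115 of the 6485 channel reads (63.5%). Its scaled level was 1911 and 1962 in WT P12 and P13 and 2895 and 2424 in KO P12 and P13. It was followed by Cacna2d4 (358 ± 56.1, mean ± SD over the 4 libraries, which are of 4 different groups), Cacna2d1 (290 ± 60.8), Cacna1c (217 ± 69.3), Cacnb2 (186 ± 54.4) and Dpp6 (142 ± 68.0). The lowest were Cacna2d3 (36.4 ± 21.2), Cacnb4 (30.0 ± 12.4) and Cacna1d (28.9 ± 11.2). Each level sums the reads of all rings of a host, 54 for Kcnma1 and 3 each for Cacnb2 and Cacnb4. It was divided neither by the number of rings nor by the length of the gene. Kcnma1 lay above every other host in all 4 libraries. Neighbours in the order from Cacna2d4 to Dpp6 differed by less than the sum of their SDs, and so did the 3 lowest hosts.

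**Figure D1:**
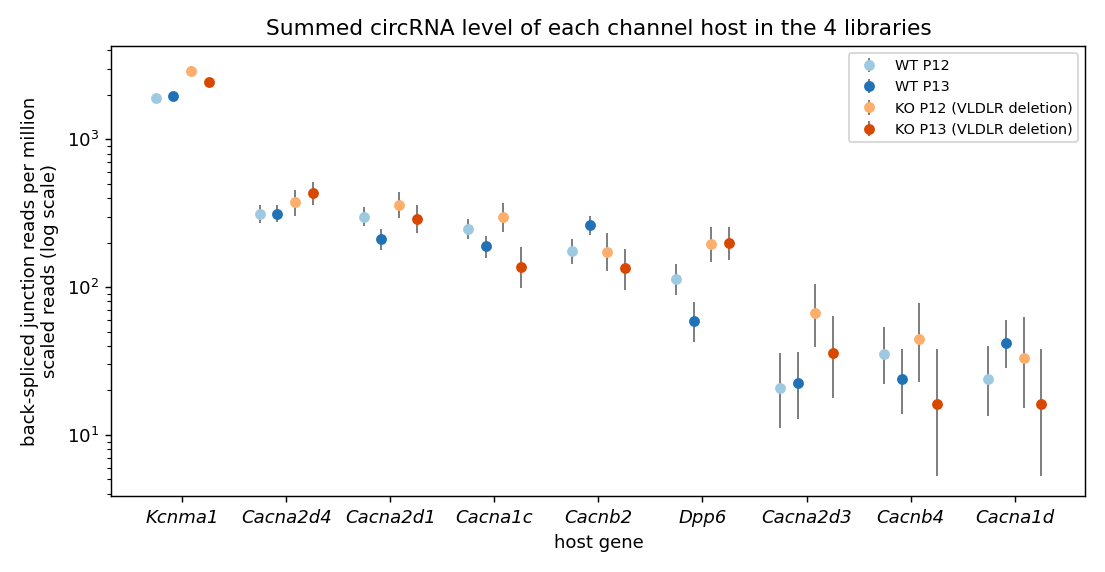
Summed circRNA level of each of the 9 channel hosts, in back-spliced junction reads per 1000000 scaled reads on a log axis, with 1 point per library and exact Poisson 95% intervals. Kcnma1 lies between 1911 and 2895, and its points for the deletion libraries are above both wild-type points, as they are for Dpp6.

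The genotype was compared over both days by edgeR's quasi-likelihood test, with genotype and day as additive terms and p-values adjusted by Benjamini-Hochberg over all features tested. With 1 library per group it has 1 residual degree of freedom, and its p-values rest on what spread the 4 libraries leave and say nothing of the spread between animals. Reads were scaled by TMM, so that a circRNA that rose did so relative to the median circRNA. On the authors' SRPBM scale, described with the processing, the log2 fold change of the median circRNA was -1.54, against -0.08 here. In bulk tissue such as this, fewer cells of a type and less RNA per cell cannot be told apart.

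Summed per host, Kcnma1 and Dpp6 rose in the VLDLR deletion relative to the median host and none of the 9 fell. Of all 3899 hosts tested, 7.46% rose and 6.57% fell. On the SRPBM scale the log2 fold changes of Kcnma1 and Dpp6 were negative, and that of Dpp6 did not pass (adjusted p = 0.434 by edgeR). Kcnma1 had 1192, 1397, 783 and 743 reads in WT P12, WT P13, KO P12 and KO P13, and its log2 fold change was 0.45 ± 0.11 (SE; adjusted p = 5.95e-04 by edgeR). On the SRPBM scale it was -1.07, above the median host there (-1.57). The scaled levels of the 2 genotypes do not overlap.

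Dpp6 had 71, 42, 53 and 61 reads in the same order and a log2 fold change of 1.25 ± 0.30 (adjusted p = 6.00e-04 by edgeR), and -0.26 on the SRPBM scale. Its scaled levels were 114 and 59.0 in WT and 196 and 199 in the deletion. With genotype as the single term, the adjusted p was 0.0277 with all 4 libraries, and without WT P13, the lowest of the 4, it was 0.234 (log2 fold change 0.79). DESeq2 called Kcnma1 (adjusted p = 0.0099) and not Dpp6 (0.0804), against 2.85% of all hosts that it called higher. At an unadjusted p under 0.05 edgeR passed the same 2 hosts and no others of the 9. With genotype as the single term, Kcnma1 had an adjusted p of 0.0186 by edgeR with all 4 libraries and of 0.0948 without KO P12 (log2 fold change 0.32). On the SRPBM scale 6 of the 9 hosts were called lower, beside 76.3% of all hosts.

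The remaining hosts did not pass. Cacna2d4, whose alpha-2-delta subunit serves the photoreceptor synapse, had a log2 fold change of 0.36 ± 0.19 (adjusted p = 0.247), with counts of 196, 223, 101 and 132. Cacna2d1, another alpha-2-delta gene, had 0.36 ± 0.21 (adjusted p = 0.313) from 187, 150, 97 and 89 reads. Cacna2d3, the third gene of this type, had 1.18 ± 0.68 (adjusted p = 0.29) from 13, 16, 18 and 11 reads. The deletion libraries lay above both wild-type libraries in scaled level for Cacna2d4 and Cacna2d3. Those of Cacna2d1 did not, since WT P12 stood at 299.7 and KO P13 at 290.4.

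Among the beta subunit genes, Cacnb2 had a log2 fold change of -0.50 ± 0.27 (adjusted p = 0.234) from 109, 187, 47 and 41 reads, and Cacnb4 one of -0.05 ± 0.74 (adjusted p = 0.976) from 22, 17, 12 and 5. The pore genes stood at -0.07 ± 0.25 for Cacna1c (adjusted p = 0.902), with 155, 134, 80 and 42 reads, and at -0.42 ± 0.75 for Cacna1d (adjusted p = 0.792), with 15, 30, 9 and 5. The SEs of Cacnb4, Cacna1c and Cacna1d leave room for changes in both directions. All adjusted p in this and the preceding paragraph are from edgeR's quasi-likelihood test.

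At the level of single circRNAs, 28 of the 133 had at least 10 reads in at least 2 libraries and were tested. They came from 6 hosts and held 82.7% of the channel reads. The other 105 had a median of 8 reads over the 4 libraries and at most 37. Of the 28, 3 rose and 0 fell for the genotype, where 5.03% of all 8785 circRNAs tested rose and 3.59% fell. At an unadjusted p under 0.05, 5 were higher and 2 lower. DESeq2 called 0 of the 28, against 3.29% of all circRNAs, with 4 at an unadjusted p under 0.05. The median log2 fold change was 0.22 over the 28 and -0.08 over all circRNAs tested. On the SRPBM scale 14 of the 28 were called lower, beside 54.3% of all.

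The 3 circRNAs that rose came from Cacna2d1, Kcnma1 and Cacna2d4. That of Cacna2d1 (chromosome 5, 16264258 to 16267475, exon class, 3218 bases from end to end on the genome) held 39 and 13 reads in WT P12 and P13 and 40 and 33 in KO P12 and P13. Its log2 fold change was 1.73 ± 0.38 (adjusted p = 0.00716 by edgeR), and on the SRPBM scale it was 0.30 and did not pass (adjusted p = 0.518). WT P13 was the lowest library, at a scaled level of 20.1 against 68.3 in WT P12. Without the day term the adjusted p was 0.0697 by edgeR (log2 fold change 1.62), and without WT P13 as well it was 0.223 (0.97). Coordinates are those of the deposited tables, and the sources used here name no genome build for them.

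The Kcnma1 circRNA that rose (chromosome 14, 23494539 to 23509900, exon class, 15362 bases) held 319, 400, 221 and 241 reads in the same library order. Scaled, this was 558 and 618 in WT and 855 and 829 in the deletion, without overlap. Its log2 fold change was 0.52 ± 0.15 (adjusted p = 0.0416 by edgeR), but -0.94 on the SRPBM scale. The most abundant Kcnma1 circRNA (chromosome 14, 23363801 to 23386353, exon class, 22553 bases) held 317, 407, 256 and 209 reads. Its log2 fold change was 0.52 ± 0.17 and it did not pass (adjusted p = 0.0742).

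In Cacna2d4, the circRNA that rose (chromosome 6, 119267807 to 119282250, exon class, 14444 bases) held 69, 98, 52 and 77 reads. Its scaled level was 121 and 151 in WT and 201 and 265 in the deletion, and the log2 fold change was 0.77 ± 0.23 (adjusted p = 0.0459 by edgeR; -0.69 on the SRPBM scale). The Kcnma1 and Cacna2d4 calls are close to the threshold. With genotype as the single term neither passed, with an edgeR adjusted p of 0.054 for Kcnma1 and 0.0813 for Cacna2d4. Fits without 1 library also lack the day term. In them the adjusted p ran from 0.0401 to 0.264 for Kcnma1 and from 0.018 to 0.365 for Cacna2d4, both highest without WT P12.

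**Figure D2:**
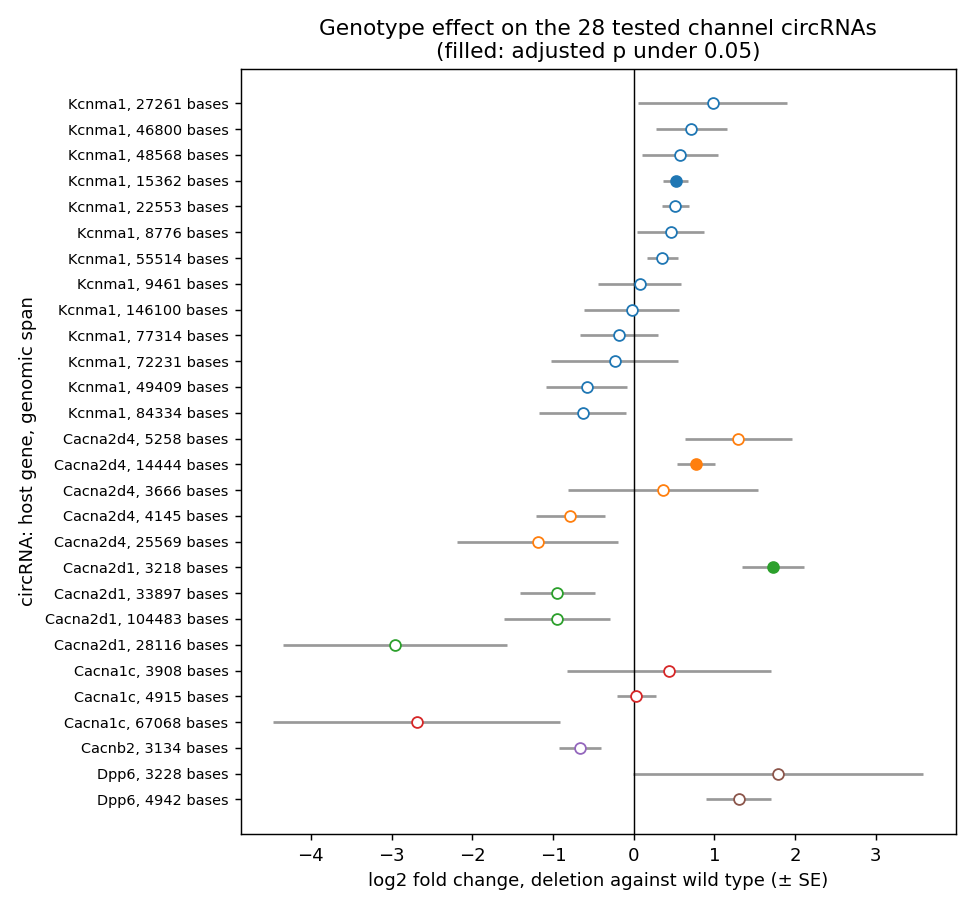
Log2 fold change, deletion against wild type, with its SE for the 28 tested channel circRNAs, grouped by host and labelled with the span of each circRNA in bases. Filled points mark the 3 with an adjusted p under 0.05, from Kcnma1 (0.52), Cacna2d4 (0.77) and Cacna2d1 (1.73), while circRNAs of the same 3 hosts also lie below 0.

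CircRNAs of the same host had log2 fold changes of both signs. Beside its circRNA at 1.73, Cacna2d1 had one (chromosome 5, 16299929 to 16333825, exon class) with 35, 38, 8 and 9 reads and a log2 fold change of -0.95 ± 0.47 (adjusted p = 0.261 by edgeR). A shorter Cacna2d4 circRNA (chromosome 6, 119267807 to 119271951, exon class, 4145 bases) begins at the same acceptor as the one that rose. It had 46, 45, 9 and 15 reads and -0.78 ± 0.43 (adjusted p = 0.328 by edgeR).

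Shares within a host do not depend on how libraries are scaled, and are given for the 2 most abundant circRNAs of the 3 hosts with the most reads. They do depend on depth, since unlisted rings drop out of the host's reads. Cacna2d4 had 13 and 14 rings listed in WT P12 and P13 and 6 and 9 in KO P12 and P13. This choice was made after the counts were seen, and the shares were given no test. The 14444-base Cacna2d4 circRNA took 35.2% of the host's reads in WT P12 (95% exact binomial interval 28.5% to 42.3%) and 43.9% in WT P13 (37.3% to 50.7%). In the deletion it took 51.5% (41.3% to 61.6%) at P12 and 58.3% (49.4% to 66.8%) at P13. The 4145-base circRNA took 23.5% and 20.2% in WT and 8.91% and 11.4% in the deletion. Of the reads of these 2 rings alone, the shorter had 40.0% (31.0% to 49.6%) and 31.5% (24.0% to 39.8%) in wild type. In the deletion it had 14.8% (6.98% to 26.2%) and 16.3% (9.42% to 25.5%). The 2 genotypes do not overlap in any of these Cacna2d4 shares, although several of their intervals do. In the Kcnma1 pair 23363801 to 23373261 and 23363801 to 23386353, the first had 5.09% and 6.44% in WT and 3.76% and 5.0% in KO libraries. In the pair 23494539 to 23543106 and 23494539 to 23509900, the first had 7.80% and 3.61% in WT and 7.14% and 4.37% in KO libraries. Intervals of the genotypes overlap in both Kcnma1 pairs.

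For Cacna2d1, the 3218-base circRNA took 20.9% and 8.67% of the host's reads in WT P12 and P13 and 41.2% and 37.1% in KO P12 and P13. The one of 33897 bases took 18.7% and 25.3% in WT and 8.25% and 10.1% in the deletion. Kcnma1 kept its proportions more evenly: the 22553-base ring took between 26.6% and 32.7% and the 15362-base ring between 26.8% and 32.4% in the 4 libraries. For neither Kcnma1 ring did the order of the libraries separate the genotypes.

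**Figure D3:**
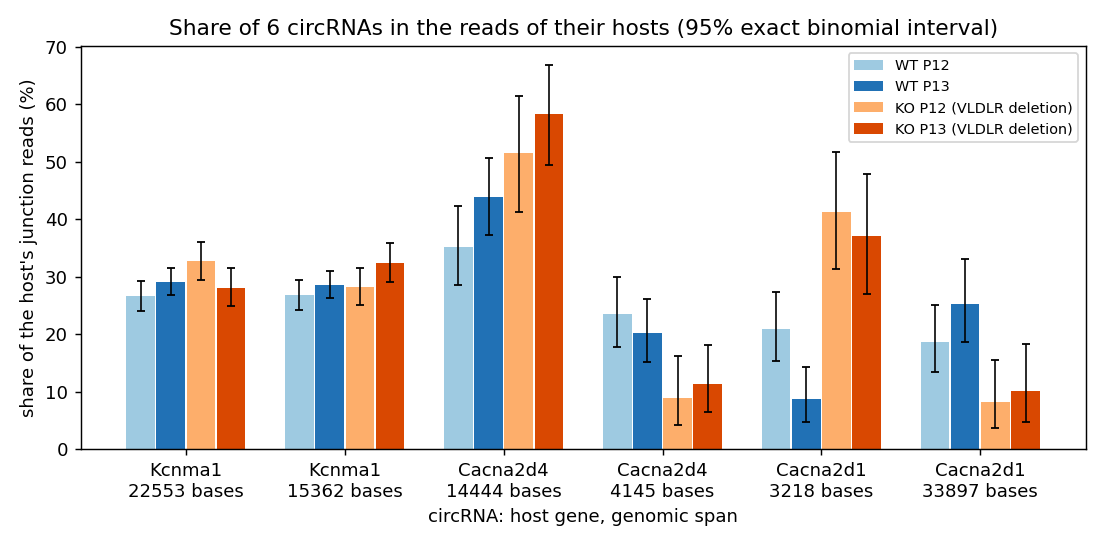
Share of the host's junction reads, in percent, held by the 2 most abundant circRNAs of Kcnma1, Cacna2d4 and Cacna2d1 in each of the 4 libraries, with 95% exact binomial intervals. The 14444-base ring of Cacna2d4 and the 3218-base ring of Cacna2d1 have larger shares in both deletion libraries, and their partners of 4145 and 33897 bases have smaller ones.

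The reads of Kcnma1 were concentrated on few of its splice positions. Its 54 circRNAs used 23 positions as the lower and 17 as the higher coordinate. They spanned 1638 to 187086 bases, and 52 were of the exon class and 2 of the intron class. Acceptor here means the upstream end of a ring in the direction of transcription. The acceptor at 23386353 on chromosome 14 served 7 circRNAs that held 48.2% of the Kcnma1 reads. The one at 23509900 served 12 circRNAs that held 38.9%. Their shares ran from 43.9% to 51.0% and from 36.8% to 43.9% over the 4 libraries. On the donor side, position 23363801 closed 8 circRNAs with 34.3% of the reads and position 23494539 closed 3 with 30.4%. The third ring by abundance (chromosome 14, 23330840 to 23386353, exon class) held 161, 199, 111 and 96 reads and shares its acceptor with the most abundant one.

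**Figure D4:**
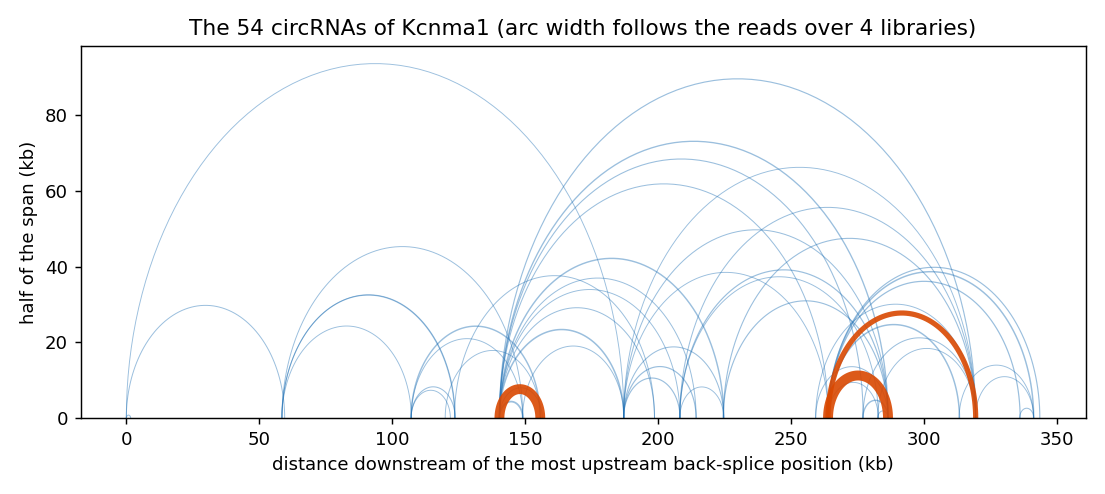
The 54 circRNAs of Kcnma1 as arcs from acceptor to donor, against the distance in kilobases downstream of the most upstream back-splice position, with arc height equal to 0.5 of the span. Arc width follows the reads summed over the 4 libraries, and the 3 arcs in orange are the most abundant rings, which stand on 2 acceptors.

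In the other hosts a single ring could hold nearly all reads. One Cacnb2 circRNA (chromosome 2, 14981306 to 14984439, exon class) held 94.0% of its host's reads, with 103, 180, 42 and 36 reads in the 4 libraries. One of Cacna1c (chromosome 6, 119052601 to 119057515, exon class) held 74.7%, with 110, 99, 61 and 37 reads and a log2 fold change of 0.03 ± 0.24 for the genotype (adjusted p = 0.954 by edgeR). Dpp6 had one (chromosome 5, 27661587 to 27666528, exon class) with 20, 26, 26 and 25 reads, 42.7% of its host. Its log2 fold change was 1.30 ± 0.41 and it did not pass (adjusted p = 0.0574 by edgeR).

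The least abundant hosts had no circRNA with enough reads for the test. The leading ring of Cacna1d (chromosome 14, 30045215 to 30047371) held 6, 15 and 4 reads and was unlisted in KO P13. For Cacna2d3 the ring with the highest mean scaled level (chromosome 14, 28943557 to 28956867) held 2, 3 and 9 and was unlisted in KO P13, and the one with the most reads (chromosome 14, 29043501 to 29105025) held 9, 4, 2 and 3. For Cacnb4 (chromosome 2, 52449950 to 52455709) the reads were 13, 9, 3 and 2. All 4 are of the exon class.

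Compared with circRNAs of all hosts, the exonic channel circRNAs spanned longer stretches of the genome. Of the 133, 124 (93.2%) were of the exon class, and these had a median span of 33.9 kilobases, against 10.4 kilobases over all exonic circRNAs with 1 host. The 9 of the intron class had a median of 7.37 kilobases, against 16.4. A span of 20 kilobases or more was found in 63.2% of the 133 and in 30.3% of all circRNAs with 1 host. An end shared with another circRNA of the same host was found in 91.7%, against 82.8%. Listed in all 4 libraries were 27.8% of the channel circRNAs, against 25.6%, and in 1 library only 31.6%, against 41.4%. These are descriptions with no test, and 54 of the 133 come from Kcnma1 alone.

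The deposited tables also count reads that cross the same splice positions without a back-splice. The junction ratio sets 2 times the junction reads over that number plus these other reads. In libraries from which linear RNA was removed, it describes what was left. For the leading Cacnb2 ring it was 0.869, 0.863, 0.764 and 0.809 in WT P12, WT P13, KO P12 and KO P13. For the leading Cacna1c ring it ran from 0.705 to 0.753, and for the 15362-base Kcnma1 ring from 0.685 to 0.748. The ratio of the 14444-base Cacna2d4 ring was lower, at 0.169 and 0.241 in WT and 0.337 and 0.348 in the deletion. Its other reads numbered 680, 618, 205 and 289. The 3218-base Cacna2d1 ring stood at 0.595 and 0.243 in WT and 0.734 and 0.653 in the deletion. For these last 2 rings, both deletion libraries lay above both wild-type libraries.

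The genotype was also compared at each day between single libraries. A circRNA with at least 20 reads over the 2 libraries was called where the ratio of scaled counts was at least 2 or at most 0.5 and its exact 95% interval excluded 1. These calls compare 2 libraries, not the conditions, and have no replicate check. At P12, 4 of 26 channel circRNAs were called higher in the deletion library and 2 lower, against 10.9% and 10.6% of all circRNAs tested. At P13, 4 of 24 were called higher and 1 lower, against 10.3% and 9.58%. The counts of lower calls are near or below the background share. Those of higher calls are a little above it, which was not tested.

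The largest fold at P12 was that of a Cacna2d4 circRNA (chromosome 6, 119307246 to 119312503, exon class), with 20 reads in KO P12 against 7 in WT P12. It was 6.32-fold higher (95% counting interval 2.57 to 17.7). At P13 it had 8 reads in the deletion and 18 in wild type, so that KO P12 alone stood out. A Kcnma1 circRNA (chromosome 14, 23435950 to 23463210, exon class) was 5.16-fold higher at P12 (1.86 to 16.4), from 6 to 14 reads, with 13 and 4 reads in WT and KO P13. The 3218-base ring of Cacna2d1 was 2.27-fold higher at P12 (1.42 to 3.62) and 5.66-fold at P13 (2.90 to 11.7). The leading Dpp6 ring was 2.87-fold higher at P12 (1.54 to 5.43) and 2.14-fold at P13 (1.19 to 3.86). These rings of Cacna2d1 and Dpp6 were called on both days. At P13 the fourth higher call was a Kcnma1 ring (chromosome 14, 23463101 to 23509900, exon class), with 22 reads in WT and 20 in the deletion (2.03-fold, 1.05 to 3.89).

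A second Dpp6 circRNA (chromosome 5, 27631379 to 27634606, exon class) had 34 reads in WT P12, 18 in KO P12 and 22 in KO P13, and was unlisted in WT P13. With 3 reads assumed for the unlisted library it was 16.3-fold higher in KO P13 than in WT P13, and with 0 reads there the exact 95% interval starts at 12.2-fold. A Kcnma1 circRNA (chromosome 14, 23306725 to 23386353, exon class) had 33 reads in WT P12 and was unlisted in the other 3 libraries. It was 4.98-fold lower in KO P12 with 3 reads assumed there, and with 0 reads there the exact 95% interval starts at 3.82-fold. In both cases 1 library differs from the other 3. A library in which a ring is unlisted may still hold a read of it.

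Of the other lower calls, the 4145-base ring of Cacna2d4 was 2.31-fold lower in KO P12 (1.12 to 5.37). The leading Cacnb2 ring was 2.24-fold lower in KO P13 (1.56 to 3.30), where WT P13 held 180 reads and was the highest of the 4 libraries. Summed per host, Cacna2d3 was called higher at P12 (3.19-fold, 1.48 to 7.09) and Dpp6 at P13 (3.37-fold, 2.24 to 5.12). Of the 18 Cacna2d3 reads in KO P12, 9 came from its ring with the highest mean scaled level. Of the 61 Dpp6 reads in KO P13, 22 came from the second Dpp6 ring, which was unlisted in WT P13. The shares of all hosts called higher were 7.37% at P12 and 6.66% at P13.

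Between P12 and P13 the channel circRNAs were compared over both genotypes in the same fit. By edgeR 0 of 28 circRNAs were called for the day, with 2 at an unadjusted p under 0.05, and DESeq2 called 0. Over all circRNAs 0.0228% were called by edgeR. Of the 9 hosts 0 were called by edgeR, with Cacna1c lower at an unadjusted p under 0.05, and 0 by DESeq2, against 0.103% of all hosts by edgeR. The log2 fold change of Cacna1c was -0.70 ± 0.25 (adjusted p = 0.749 by edgeR). Its scaled level was 248 at P12 and 188 at P13 in WT, and 296 and 137 in the deletion.

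Between single libraries, 0 channel circRNAs were called higher and 4 lower of 34 at P13 against P12 in wild type, where 4.48% and 4.62% of all were called. In the deletion 1 of 17 was called higher and 1 lower, and 8.18% of all circRNAs were called in either direction. In wild type the 33-read Kcnma1 ring and the second Dpp6 ring were lower at P13, 12.5-fold (interval from 9.58) and 12.8-fold (from 9.89) with 3 reads assumed. The 3218-base Cacna2d1 ring was 3.40-fold lower (1.78 to 6.94). A Kcnma1 ring (chromosome 14, 23494539 to 23543106) went from 27 to 15 reads (2.04-fold lower, 1.05 to 4.13). In the deletion a Kcnma1 ring (chromosome 14, 23501125 to 23509900, exon class) went from 13 to 31 reads (2.12-fold higher, 1.08 to 4.42), and the Cacna2d4 ring with 20 reads at P12 was 2.81-fold lower at P13 (1.19 to 7.38). Summed per host, Cacna1c was called lower at P13 in the deletion (2.16-fold, 1.47 to 3.21), as were 3.66% of all hosts.

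Other channel genes were counted from 3 lists. Of 19 further subunit genes of voltage-gated calcium channels, 11 had circRNAs, and 0 of their 9 tested circRNAs rose or fell for the genotype by edgeR (1 higher and 1 lower at an unadjusted p under 0.05, 0 by DESeq2). The most reads came from Cacna1b, a presynaptic pore gene, with 178, 249, 58 and 86. Cacna1i, a low-voltage-activated pore gene, had 39, 54, 37 and 21, and Cacna1a, another presynaptic pore gene, had 46, 59, 21 and 21. No host of the 5 tested was called, and none had an unadjusted p under 0.05.

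Of 40 voltage-gated potassium channel genes, 16 had circRNAs. By edgeR 0 of 16 tested circRNAs rose and 1 fell (5.03% and 3.59% over all circRNAs), while 3 were lower at an unadjusted p under 0.05 and DESeq2 called 0. The one that fell came from Kcnq5, an M-type channel gene (chromosome 1, 21457404 to 21535187, exon class). It had 22 and 19 reads in the WT libraries and was unlisted in the deletion (adjusted p = 0.0304 by edgeR), 3.32-fold lower at P12 and 2.84-fold at P13 with 3 reads assumed there. Of 7 hosts tested, Kcnq5 and Kcnh7 fell and 0 rose (6.57% and 7.46% over all hosts). Kcnq5 held 44 and 42 reads in WT libraries and 0 and 5 in KO libraries, with a log2 fold change of -2.92 ± 0.69 (adjusted p = 5.83e-04 by edgeR). Kcnh7, an ERG-type channel gene, went from 33 and 59 to 3 and 10 (-1.66 ± 0.55, adjusted p = 0.0238 by edgeR). DESeq2 gave neither host an adjusted p. With genotype as the single term the edgeR adjusted p was 0.0253 for Kcnq5 and 0.081 for Kcnh7. In such fits it was 0.0818 for Kcnq5 without WT P12, and for Kcnh7 0.481 without WT P13 and 0.239 without KO P12. Kcnh5 led the list with 643, 946, 353 and 345 reads, ahead of Kcnh1 with 173, 180, 57 and 73.

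Of 15 genes related to Kcnma1 or Dpp6 (BK subunits and relatives, Kcnd channels and their partners), 8 had circRNAs. None of their 5 tested circRNAs was called by edgeR (1 higher and 1 lower at an unadjusted p under 0.05) and 0 by DESeq2, and none of 5 hosts was called (1 lower at an unadjusted p under 0.05). Kcnt2 had 56, 53, 19 and 32 reads, Kcnip4, a Kcnd partner, had 36, 41, 15 and 42, and Dpp10, the closest relative of Dpp6, had 17, 22, 5 and 11. The median log2 fold changes of tested circRNAs were -0.40, -0.33 and -0.48 in the 3 lists, against 0.22 for the 9 hosts described here. Over all circRNAs tested the median was -0.08. Of the 28 rings behind the 0.22, 13 come from Kcnma1, and members and lists were chosen with earlier results of these data known. Whether these medians differ was not tested.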

How the data were processed

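Ribosomal and linear RNA had been depleted from total RNA before paired-end sequencing, per the labels' protocols. Junction counts, non-junction counts and junction ratios were deposited per library in the column layout of CIRI, per the file headers. Per the submitters' processing notes, the tools included BWA and DESeq2. Genome build, annotation and settings: not given in the sources used here. Junction ratios were deposited as a fraction, which could be recomputed from the authors' counts within 0.0005. The deposited SRPBM signal divides the authors' junction counts by 1 constant per library, and what that constant counts is not stated. SRPBM summed to 72515, 83443, 28242 and 28355 in WT P12, WT P13, KO P12 and KO P13.

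Gene symbols came from RefSeq genes (assembly GRCm38.p6, names only), which covered at least 99.8% of the host identifiers of each library. All 133 channel circRNAs had 1 host. The members and gene lists were chosen with earlier results of these data known. Fits covered all circRNAs that reached 10 reads in 2 or more libraries, with edgeR 4.0.16 (TMM, robust glmQLFit, genotype plus day, adjusted p under 0.05) and DESeq2 1.42.0, in R 4.3.3. Scaled levels, given per 1000000, divide reads by TMM effective library sizes, which were 571398, 647714, 258475 and 290649 for circRNAs in the library order above. Levels of single host genes, the channel hosts included, used the sizes from reads summed per host. These were 623890, 711918, 270431 and 306484 in the same order. Unlisted circRNAs entered sums as 0, which removes more low counts from the smaller deletion libraries. Named circRNAs were the most abundant of each host, those called in the fit, the 3 largest calls per direction between single libraries, and those confined to 1 genotype with at least 10 reads in each of its libraries, of which there were 0. From the other lists, called hosts and the 3 hosts with the most reads were named, except that some genes of the lists are not reported here. Other rings were named for the shares within hosts after their values were seen. Fits were run on simulated data as a test of the code, which says nothing of the calls in these data. No sequences were used here. Intervals are exact (95%) and cover counting error only, since no source used here mentions molecular identifiers.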

Additional observations from a re-analysis of the deposited data

How the results depend on the processing

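Median-ratio scaling kept every count of calls and every direction of the named hosts and circRNAs for the genotype. Restricting the channel circRNAs to the exon class kept the counts of calls. On the SRPBM scale the calls for the genotype were 0 higher and 14 lower for circRNAs and 0 and 6 for hosts. Between single libraries there were 0 higher and 12 lower at P12, 1 and 17 at P13, and 1 higher for the day in wild type. The shares of all circRNAs called between single libraries on that scale are not given here, so these counts have no background. There the log2 fold changes of the hosts were -1.16 for Cacna2d1, -0.33 for Cacna2d3, -1.17 for Cacna2d4, -1.07 for Kcnma1 and -0.26 for Dpp6. Those of Kcnma1 circRNAs, named by their start, were -0.94 (23363801), -0.46 (23435950), -0.94 (23494539) and -1.01 (23501125). They were -0.16 for the leading Dpp6 ring, -1.42 for that of Cacna1c, and -0.69 (119267807) and -0.15 (119307246) for those of Cacna2d4. Every circRNA shifts on that scale, and what its constant counts was not tested.

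Without a filter on low counts, 1 channel circRNA was higher and 1 lower for the genotype, and the Cacna1c ring stood at -0.19. With at least 20 reads in 2 libraries, 5 were higher. DESeq2 called 0 circRNAs and 1 host higher. With genotype as the single term, 0 circRNAs were higher, and the Cacnb4 host stood at 0.021. The shares of all circRNAs called without a filter, with the 20-read filter and with genotype alone are not given here. Those counts therefore cannot be set against a background. Leaving out 1 library at a time also meant genotype as the single term. It left 1 genotype with a single library, so no counts of calls are given. Under this the log2 fold change ran from -0.67 to 0.45 for the Cacna1c host, from -1.02 to 0.032 for Cacna1d, from -0.84 to 0.60 for Cacnb4, from -0.17 to 1.79 and from -0.15 to 0.93 for the Kcnma1 rings at 23435950 and 23501125, and from -0.44 to 0.45 for the Cacna1c ring. Cacnb4, Cacna1d and Cacna1c hold 56, 59 and 411 reads in all, and the cause of these turns was not tested.

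Between single libraries a minimum of 10 reads gave 9 higher and 6 lower at P12 and 7 and 6 at P13, 1 and 8 for the day in WT and 3 lower in KO. A minimum of 50 reads gave 1 and 1 at P12, 1 higher at P13, 1 lower for the day in WT and 0 and 0 in KO. A fold of 1.5 gave 8 higher at P12, 1 higher for the day in wild type and 2 lower in the deletion. The shares of all circRNAs called at these minima and this fold are not given here. These counts therefore cannot be set against a background. No paired analysis was possible because the labels give no replicate numbers and each group has 1 library. For the day, fits with day as the single term, chosen after seeing the data, called 0 channel circRNAs with all libraries and without each in turn.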

Other observations

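Over the 4 libraries, the summed level of the 9 channel hosts was most closely followed by Bub1b, Pik3c2a and Hmgxb3. Likeness was the Euclidean distance between log2 scaled levels centred on their mean, computed for 838 hosts with at least 500 reads. The distances were 0.0438, 0.0537 and 0.0673, against a median of 0.51. With 4 libraries this is a description and carries no test.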
